A study of Mus musculus with 12 samples.

Results

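The 32 genes described here mark astrocytes, the star-shaped glia of the brain. They were picked by symbol from the 78298 genes of the deposited table: 23 of them serve the resting, homeostatic cell and 9 are raised when astrocytes become reactive. All 32 symbols were found, and 30 were expressed highly enough to be tested among 18600 genes. The reactive genes Timp1 and Steap4 were not tested, with 0 to 6 and 3 to 17 counts per library.

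The study profiled hippocampal poly(A) RNA of C57BL/6 males, 6 to 8 weeks old on arrival, in 12 libraries: 4 for each of the groups Treatment, Model and Control. Treatment mice went through 28 days of chronic unpredictable mild stress, a sequence of mild stressors used as a mouse model of depression, and were gavaged from day 15 with poricoic acid A, a fungal triterpenoid from Poria cocos, at 20 mg/kg daily for 14 days. Model mice had the same stress and received saline. Control mice had saline without stress. No treated, unstressed mice were analysed here, so the compound was seen only on top of stress. The labels give 4 mice per group without saying that each library is 1 mouse, and p-values therefore reflect only how much these samples varied. Bulk tissue was used, so fewer astrocytes and less RNA per astrocyte cannot be told apart.

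Astrocytes clear glutamate and potassium released by neurons, return glutamine to them, share metabolites through gap junctions, and line blood vessels with endfeet rich in water channels. After injury, inflammation or other insults they become reactive: they enlarge, add intermediate filaments such as GFAP and vimentin, and secrete acute-phase proteins such as lipocalin 2. Signalling through STAT3 and NF-kB drives much of that response, whereas in rodent models of chronic stress a loss of astrocyte markers has been described as well.

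Library totals ran from 17083260 to 27479083 estimated counts, and the biological coefficient of variation was 10.7%. Values by library are given as CPM, the usual count scaled to a common library total, here also scaled for library composition. Fold changes are on the log2 scale with their standard error, from edgeR's quasi-likelihood test. A gene is said to rise or fall only where its p, adjusted by Benjamini and Hochberg's method across every gene tested, was under 0.05. The library names of Treatment replicates 2 and 3 carry the numbers 1631 and 1636, apart from 1868 to 1898 in the other 10 libraries. Levels of regional marker genes differed as well, and whether the tissue pieces themselves differed was not tested. The 10 neocortical marker genes summed to 540 to 831 CPM in Treatment, 495 to 603 CPM in Model and 445 to 533 CPM in Control, and 10 dentate granule cell markers to 663 to 703, 818 to 998 and 718 to 875 CPM in the same groups. All markers of both lists were detected well enough to be tested. Of the neocortical list 3 genes rose and 0 fell in Treatment against Model, and of the dentate list 0 rose and 5 fell.

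The regions just before 4 member genes are shown because the results turn on Aldh1l1, Lcn2, Gfap and Ntsr2. Each stretch runs from 250 bases before to 50 bases after the annotated transcription start in RefSeq's GRCm38.p6 annotation, an earlier build than the GRCm39 named for the deposited values. Capitals mark matches to TTCNNNGAA, the palindrome that STAT factors bind, which reads the same on both strands. Aldh1l1 lies at chr6:90550543-90550842 on the plus strand, Lcn2 at chr2:32387690-32387989 on the minus strand, Gfap at chr11:102897151-102897450 on the minus strand and Ntsr2 at chr12:16653220-16653519 on the plus strand.
Aldh1l1: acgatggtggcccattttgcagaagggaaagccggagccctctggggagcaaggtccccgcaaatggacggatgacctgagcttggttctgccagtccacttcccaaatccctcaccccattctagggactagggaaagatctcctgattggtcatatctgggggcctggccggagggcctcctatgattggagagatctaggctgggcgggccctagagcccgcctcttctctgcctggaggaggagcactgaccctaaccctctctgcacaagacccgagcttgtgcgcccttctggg
Lcn2: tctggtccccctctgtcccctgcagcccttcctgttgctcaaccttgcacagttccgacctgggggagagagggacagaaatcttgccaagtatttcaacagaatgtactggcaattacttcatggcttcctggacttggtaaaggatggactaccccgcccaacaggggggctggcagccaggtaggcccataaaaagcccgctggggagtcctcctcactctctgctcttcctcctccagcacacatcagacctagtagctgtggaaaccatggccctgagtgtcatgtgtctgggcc
Gfap: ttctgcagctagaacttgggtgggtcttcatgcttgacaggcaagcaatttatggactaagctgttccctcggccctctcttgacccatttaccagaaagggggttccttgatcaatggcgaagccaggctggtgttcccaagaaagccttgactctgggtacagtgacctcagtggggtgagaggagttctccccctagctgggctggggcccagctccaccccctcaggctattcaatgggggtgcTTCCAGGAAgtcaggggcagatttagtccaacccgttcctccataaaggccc
Ntsr2: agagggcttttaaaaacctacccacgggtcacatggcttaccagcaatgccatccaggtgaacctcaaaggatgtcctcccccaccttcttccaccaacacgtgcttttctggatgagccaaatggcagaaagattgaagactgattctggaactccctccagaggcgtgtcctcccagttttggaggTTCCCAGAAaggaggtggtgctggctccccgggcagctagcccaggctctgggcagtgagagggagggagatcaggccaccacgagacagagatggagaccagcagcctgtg
The match of Gfap begins 2 bases before the start site, and that of Ntsr2 begins 62 bases before it. Of the members 28 had an entry, with 35 start sites in all (none was found for Aqp4, Atp1b2, Slc14a1 and Sox9). The STAT palindrome was found at 6 of these 35 start sites, or 17.1%, in Acsbg1, Aldoc, Gfap, Ntsr2, Slc1a3 and Steap4. Among all 32851 start sites 8.3% held it. Consensus motifs of NF-kB and of nuclear factor I, searched as exact letters on both strands, were found in 0 member regions, against 0.411% and 0.0365% of all regions. These letter matches say nothing of binding.

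The homeostatic genes were the abundant ones. Per transcript length, Glul, which makes glutamine from glutamate, stood highest with a mean of 618 FPKM over the 12 libraries (fragments scaled for transcript length and library total). It was followed by Ndrg2, an astrocyte-enriched gene of the NDRG family, with 571 FPKM, and the glycolytic enzyme gene Aldoc with 429 FPKM. The ranges of Glul and Ndrg2 overlapped, at 591 to 667 and 499 to 630 FPKM, as did those of Ndrg2 and Aldoc, whereas Slc1a2, at 259 to 372 FPKM, lay below Aldoc in all libraries. Gfap, the most abundant reactive gene, ranked seventh with 151 FPKM, and its range overlapped that of Atp1b2 above it. Of the 9 reactive genes 6 filled the bottom of the order, from S1pr3 with 1.93 FPKM down to Steap4 with 0.135 FPKM.

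**Figure D1:**
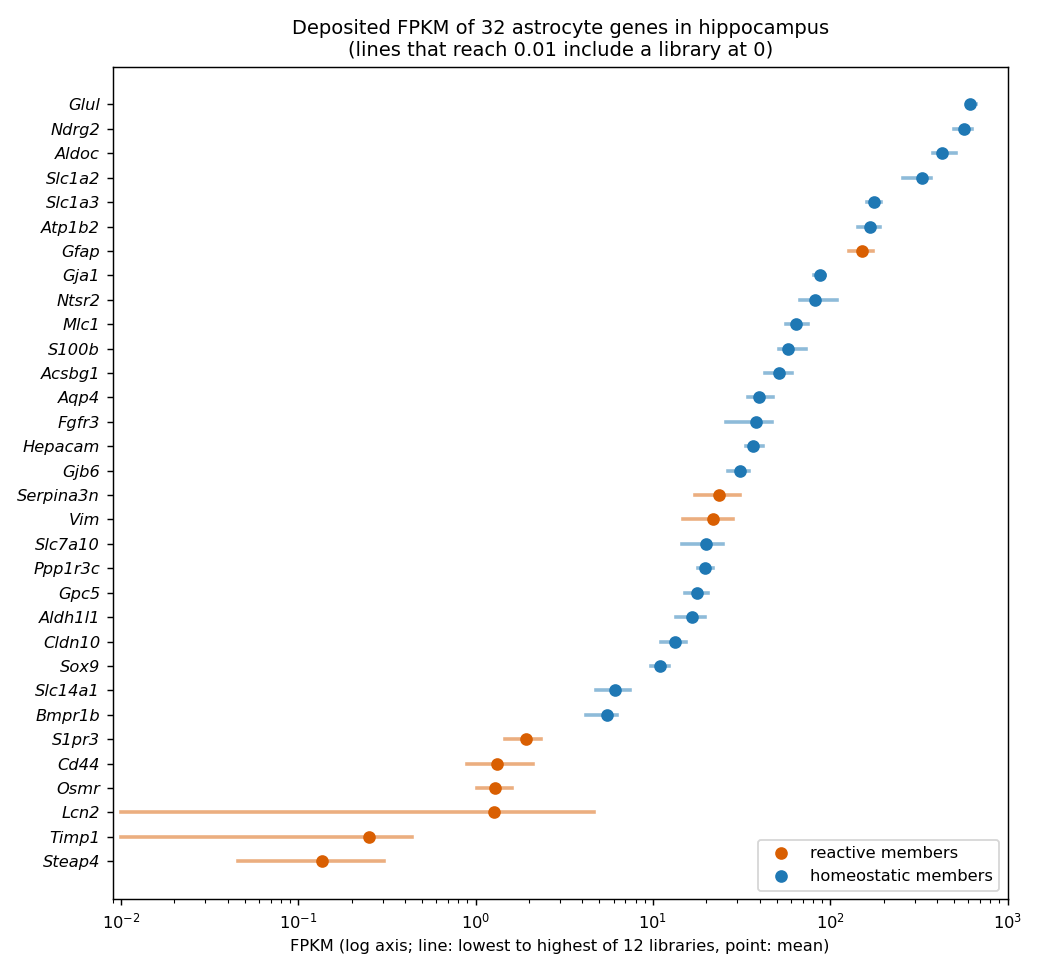
Mean deposited FPKM of the 32 genes (point) and the lowest to highest of 12 libraries (line) on a log axis, homeostatic genes in blue and reactive genes in orange. Glul is highest at 618 FPKM and Steap4 lowest at 0.135 FPKM, and the lines of Lcn2 and Timp1 reach the left edge because a library is listed at 0.

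In Treatment against Model, Aldh1l1 rose and 0 of the 30 tested members fell, while 1.88% of all tested genes passed, 1.18% higher and 0.704% lower. An unadjusted p under 0.05 was reached by 9 members, against 18.5% of all genes. Of the 23 homeostatic genes 16 were higher and 7 lower in Treatment, with a median log2 fold change of 0.09, against 0.00 over all genes. That median was 0.04 without Treatment 3 and 0.06 without Model 1, without Model 2 or with the neocortical score as a term, and 0.05 with GC and length trends removed. Of the 7 tested reactive genes 2 were higher and 5 lower, with a median of -0.09, a direction that depended on single libraries. Without Model 4, 5 of 8 reactive genes then tested were higher (median 0.05), and without Treatment 1 also 5 of 8 (median 0.01). With the neocortical score 4 of 7 were higher (median 0.12). Libraries of Treatment lay wholly above those of Model in 5 members, Aldh1l1, Ntsr2, Cldn10, Acsbg1 and Ndrg2, and wholly below in 0. Over all genes this held for 5.14% upward and 4.36% downward.

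In Model against Control 0 members passed in edgeR, as in DESeq2 and limma-voom, while 0.790% of all genes did. An unadjusted p under 0.05 was reached by 3 members (Slc7a10, Serpina3n and Lcn2), against 15.6% of all genes. Of the homeostatic genes 5 were higher and 18 lower in Model, with a median log2 fold change of -0.05, against -0.01 over all genes. Without Model 2 they were 10 higher and 13 lower (median -0.01), without Control 2 the median was -0.03, and with the choroid plexus score as a term 8 were higher (median -0.02). Of the reactive genes 6 were higher and 1, Gfap, was lower, with a median of 0.14, which was 0.24 without Model 3 and 0.33 with the choroid plexus score. Markers of other cells moved in this comparison as well. Of 12 choroid plexus markers 12 were lower in Model and 1 fell. All 10 neuronal markers were higher, 0 of them past the threshold, with sums of 7438 to 7740 CPM in Model and 6566 to 7061 CPM in Control. Microglial markers were lower in 9 of 10 (0 fell) and oligodendrocyte markers in 9 of 10 (2 fell), with overlapping sums. The part of these cells in the members' values was not tested beyond the fit with the choroid plexus score. Vim and Lcn2 lay wholly above Control, and 0 members lay wholly below, against 5.95% and 5.46% of all genes.

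In Treatment against Control 0 members passed in edgeR, DESeq2 and limma-voom, while 0.102% of all genes passed in edgeR. Here 7 members had an unadjusted p under 0.05, against 13.9% of all genes. Treatment libraries lay wholly above Control in 0 members and wholly below in 1 (Aqp4), against 3.99% and 3.24% of all genes. Homeostatic genes were 15 higher and 8 lower, with a median of 0.06, and reactive genes 4 higher and 3 lower, with a median of 0.02. Without Treatment 3 the homeostatic median was 0.03, and 3 of 8 reactive genes were higher (median -0.02). Without Control 4 the homeostatic median was 0.03, and without Treatment 1, 7 of 8 reactive genes were higher (median 0.14). Markers of other cells differed here too, with 0 past the threshold in the lists named next. Choroid plexus (12 of 12), ependymal (7 of 7) and dentate markers (10 of 10) were lower in Treatment. Endothelial (10 of 10), pericyte and smooth muscle (8 of 8) and neocortical markers (10 of 10) were higher. The part of these cells in the members' values was not tested beyond fits with the choroid plexus and neocortical scores. There the reactive median was 0.17 and 0.25. The 3 comparisons share libraries, since each group enters 2 of them, so a low value in Model alone enters both comparisons with Model, with opposite signs.

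**Figure D2:**
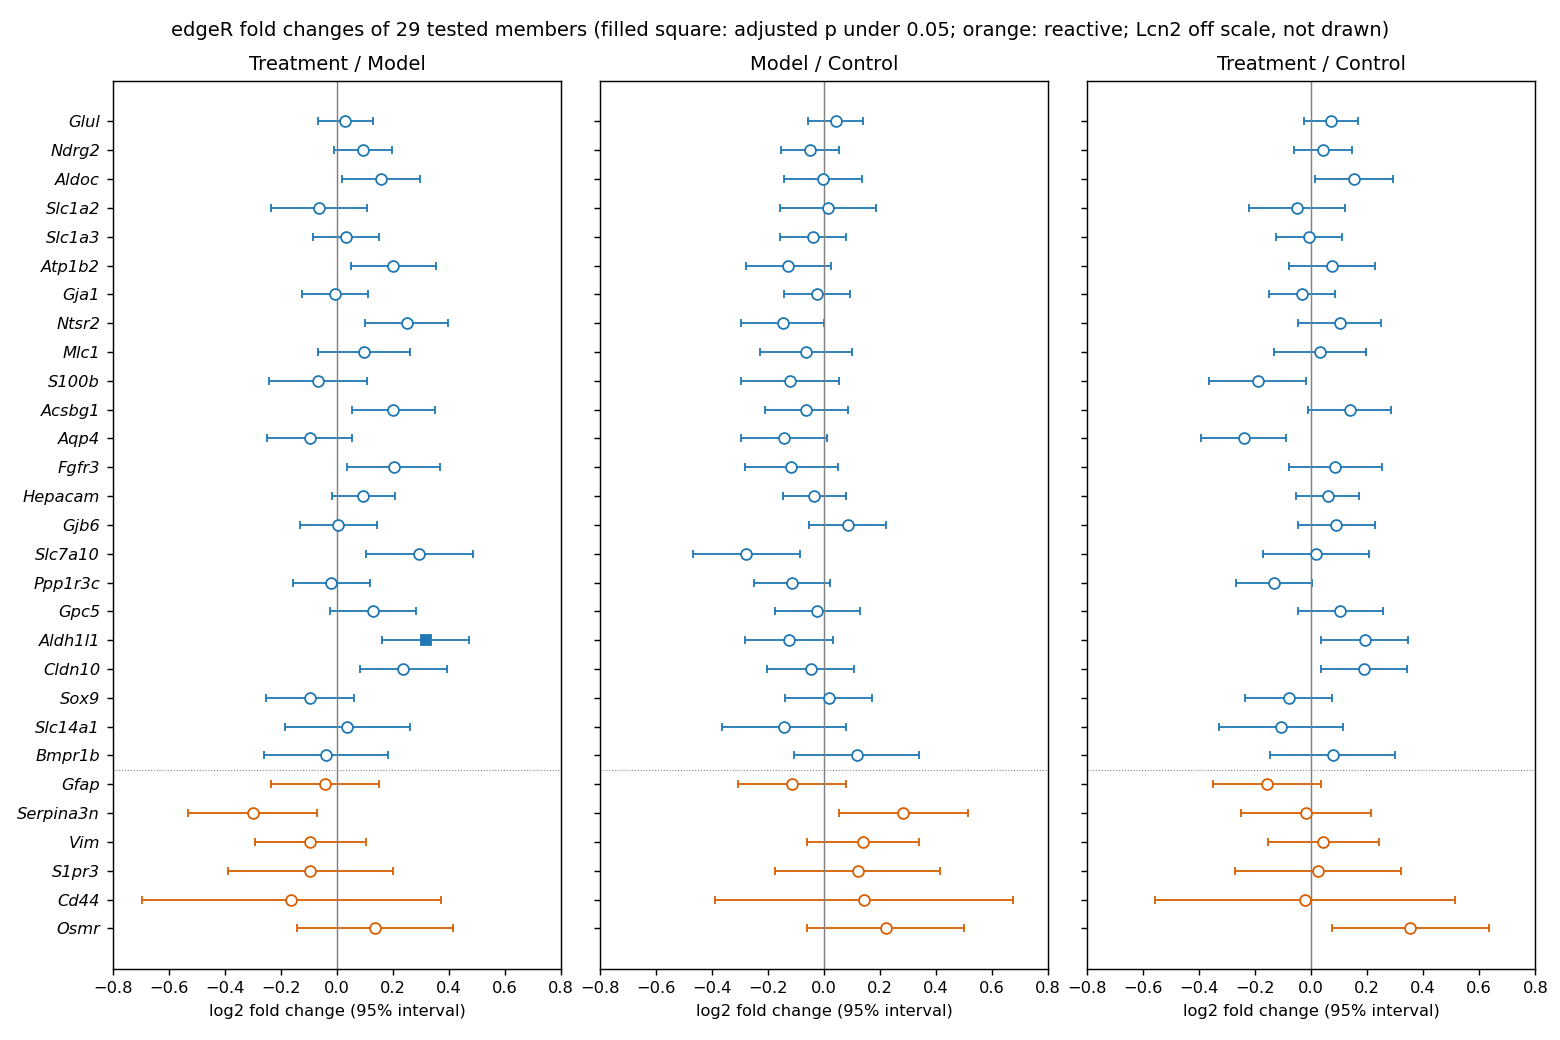
Log2 fold changes with 95% intervals of 29 tested members in Treatment over Model, Model over Control and Treatment over Control; the filled square marks an adjusted p under 0.05, orange the reactive genes. Aldh1l1 in Treatment over Model, at 0.32, is the single filled point, and Lcn2 is left out because its interval runs past the axis.

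The single call fell among the metabolic genes. Aldh1l1 encodes a folate enzyme, 10-formyltetrahydrofolate dehydrogenase, that is widely used to label astrocytes throughout the brain, and in the deposited table the gene lies at chr6:90463409-90536368 (GRCm39). It had 49.4, 54.3, 52.0 and 53.3 CPM in Treatment, against 39.7, 40.2, 42.5 and 45.4 CPM in Model and 46.8, 51.9, 41.9 and 42.3 CPM in Control. All 4 Treatment libraries were above all 4 Model libraries, and the Control libraries spread over both ranges. The means were 52.2 ± 2.13 CPM in Treatment, 42.0 ± 2.61 CPM in Model and 45.7 ± 4.65 CPM in Control (SD, n = 4 each). Aldh1l1 was thus higher in Treatment than in Model by 0.32 ± 0.07 on the log2 scale (95% interval 0.16 to 0.47, adjusted p = 0.0398 in edgeR). Against Control, Treatment differed by 0.19 ± 0.07 (adjusted p = 0.255) and Model by -0.12 ± 0.07 (adjusted p = 0.442), neither past the threshold.

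The call for Aldh1l1 lay near the threshold and was lost in 8 of the 12 fits that left out 1 library. Adjusted p was 0.0571 without Control 1, 0.0553 without Control 4, 0.0806 without Model 1, 0.149 without Model 2 and 0.112 without Model 3. It was 0.102 without Treatment 2, 0.0543 without Treatment 3 and 0.0919 without Treatment 4, and 0.163 without Treatment 2 and 3 together. Its fold change stayed positive in all 26 alternative fits, at 0.23 to 0.38. With the neocortical marker score as a term the difference was 0.28 ± 0.13 (adjusted p = 0.583), and 0 of all genes then passed. Endothelial markers moved with it too: 10 of 10 were higher in Treatment than in Model, 2 of them past the threshold, with sums of 211 to 246 CPM in Treatment and 179 to 197 CPM in Model. Pericyte and smooth muscle markers were higher in 8 of 8 (0 past the threshold), with sums of 202 to 224 CPM in Treatment and 171 to 179 CPM in Model. Microglial markers were higher in 10 of 10 (0 past the threshold), with sums of 404 to 442 CPM in Treatment and 354 to 409 CPM in Model. The part of the vascular and microglial genes in the result was not tested.

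Acsbg1, a long-chain fatty acyl-CoA synthetase gene, had 134, 143, 157 and 136 CPM in Treatment, 126, 110, 129 and 131 CPM in Model and 131, 138, 120 and 130 CPM in Control. Ndrg2 had 714, 709, 753 and 723 CPM in Treatment, 708, 667, 651 and 695 CPM in Model and 724, 722, 681 and 689 CPM in Control. In both genes the lowest Treatment library stood just above the highest Model library. The differences between Treatment and Model were 0.20 ± 0.07 for Acsbg1 (adjusted p = 0.135) and 0.09 ± 0.05 for Ndrg2 (adjusted p = 0.328). Aldoc averaged 767 ± 61.6 CPM in Treatment, 688 ± 38.2 CPM in Model and 690 ± 39.0 CPM in Control, with libraries that overlapped (Treatment over Model 0.16 ± 0.07, adjusted p = 0.215). Ppp1r3c, a glycogen-targeting subunit of protein phosphatase 1, averaged 46.7 ± 3.4 CPM in Treatment, 47.4 ± 2.25 CPM in Model and 51.3 ± 2.29 CPM in Control, and differed in no comparison past the threshold.

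The glutamate transporters overlapped among the groups and showed no call in any comparison. Slc1a2, which encodes GLT-1, the main glutamate transporter of the forebrain, had 4080, 3720, 2880 and 3410 CPM in Treatment, against 3780, 3490, 3770 and 3700 CPM in Model and 3480, 3850, 3600 and 3650 CPM in Control. Treatment libraries held both the highest and the lowest value, so that group spread most widely and enclosed the others. Treatment differed from Model by -0.06 ± 0.08 (interval -0.24 to 0.11) and Model from Control by 0.01 ± 0.08 (interval -0.16 to 0.19). Slc1a3, which encodes the transporter GLAST, had 679, 682, 669 and 684 CPM in Treatment, 685, 606, 664 and 699 CPM in Model and 655, 734, 673 and 668 CPM in Control. The Treatment values lay within the ranges of both other groups, and the differences were 0.03 ± 0.06 for Treatment over Model and -0.04 ± 0.06 for Model over Control. Glul averaged 1573 ± 39.6 CPM in Treatment, 1541 ± 36.6 CPM in Model and 1498 ± 50.9 CPM in Control, differences of at most 0.07 on the log2 scale.

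Slc7a10, chosen for description after its values were seen, encodes the transporter Asc-1, which exchanges D-serine and other small neutral amino acids. It had 29.1, 35.7, 35.3 and 31.0 CPM in Treatment, against 25.5, 24.5, 30.1 and 26.7 CPM in Model and 30.7, 36.1, 33.6 and 29.1 CPM in Control. Model was lowest, yet Model 3 reached into the ranges of Treatment and of Control. The difference was 0.29 ± 0.09 for Treatment over Model (adjusted p = 0.0987) and -0.28 ± 0.09 for Model over Control (adjusted p = 0.147). The first of these had an adjusted p of 0.0416 in DESeq2 and 0.0297 in edgeR without a filter on low counts. There 5.91% and 2.6% of all genes passed, and these were the only 2 of 26 alternative fits in which Slc7a10 passed. Atp1b2, a sodium pump beta subunit and adhesion molecule of glia, was higher in Treatment than in Model by 0.20 ± 0.07 in overlapping libraries (adjusted p = 0.146).

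Aqp4, the water channel of the endfeet, had 175, 160, 168 and 160 CPM in Treatment, against 155, 176, 173 and 205 CPM in Model and 207, 188, 195 and 193 CPM in Control. Treatment lay wholly below Control, and Model overlapped both. The difference was -0.24 ± 0.07 for Treatment over Control (adjusted p = 0.154) and -0.14 ± 0.07 for Model over Control (adjusted p = 0.357). The urea transporter gene Slc14a1 averaged 19.2 ± 1.83 CPM in Treatment, 18.7 ± 3.26 CPM in Model and 20.6 ± 0.641 CPM in Control.

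Gja1, which encodes connexin 43, the main gap junction protein of astrocytes, had 240, 245, 250 and 238 CPM in Treatment, 230, 229, 254 and 265 CPM in Model and 247, 259, 245 and 244 CPM in Control. The Treatment libraries lay inside the range of Model, and the fold changes were -0.01 ± 0.06 for Treatment over Model (interval -0.13 to 0.11) and -0.02 ± 0.06 for Model over Control (interval -0.14 to 0.09). Gjb6, which encodes connexin 30, averaged 51.5 ± 3.06 CPM in Treatment, 51.3 ± 3.60 CPM in Model and 48.4 ± 2.22 CPM in Control. Cldn10, a claudin gene, had 25.9, 23.5, 28.3 and 27.2 CPM in Treatment, against 23.4, 22.8, 20.9 and 21.9 CPM in Model and 23.2, 24.1, 23.7 and 21.2 CPM in Control. Treatment 2 stood just above Model 1, so the groups did not overlap, but the difference of 0.24 ± 0.07 did not pass (adjusted p = 0.101). Mlc1 and Hepacam, which encode partner membrane proteins at astrocyte contacts, and Gpc5, a heparan sulphate proteoglycan gene, were higher in Treatment than in Model by 0.09 to 0.13 on the log2 scale, none past the threshold.

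Among receptors and regulators, Ntsr2, the low-affinity neurotensin receptor gene, had 129, 128, 151 and 122 CPM in Treatment, 114, 102, 112 and 117 CPM in Model and 127, 115, 124 and 127 CPM in Control. All Treatment libraries were above Model, with Treatment 3 highest, while Control overlapped both. Treatment over Model was 0.25 ± 0.07 (adjusted p = 0.0754) and Model over Control -0.15 ± 0.07 (adjusted p = 0.322). The first of these passed in DESeq2 (adjusted p = 0.0194) and in edgeR without a filter on low counts (adjusted p = 0.0315). There 5.91% and 2.6% of all genes passed, and these were the only 2 of 26 alternative fits in which Ntsr2 passed.

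S100b, a calcium-binding protein gene, had 63.2, 60.5, 74.4 and 68.2 CPM in Treatment, 76.6, 68.9, 65.8 and 68.1 CPM in Model and 88.4, 71.6, 71.3 and 72.9 CPM in Control. Control 1 stood apart at the top, and Treatment 3 reached into the Control range. The difference between Treatment and Control was -0.19 ± 0.08 and did not pass (adjusted p = 0.318), and without Control 1 it was -0.11 (adjusted p = 0.621). The growth factor receptor gene Fgfr3 averaged 120 ± 3.20 CPM in Treatment, 104 ± 12.7 CPM in Model and 113 ± 8.79 CPM in Control (Treatment over Model 0.20 ± 0.08, adjusted p = 0.178). Sox9, the transcription factor of astrocyte fate, averaged 41.0 ± 2.68, 43.8 ± 1.86 and 43.3 ± 4.22 CPM in Treatment, Model and Control, and Bmpr1b, a bone morphogenetic protein receptor gene, 25.6 ± 3.53, 26.3 ± 2.21 and 24.3 ± 2.85 CPM in the same groups.

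**Figure D3:**
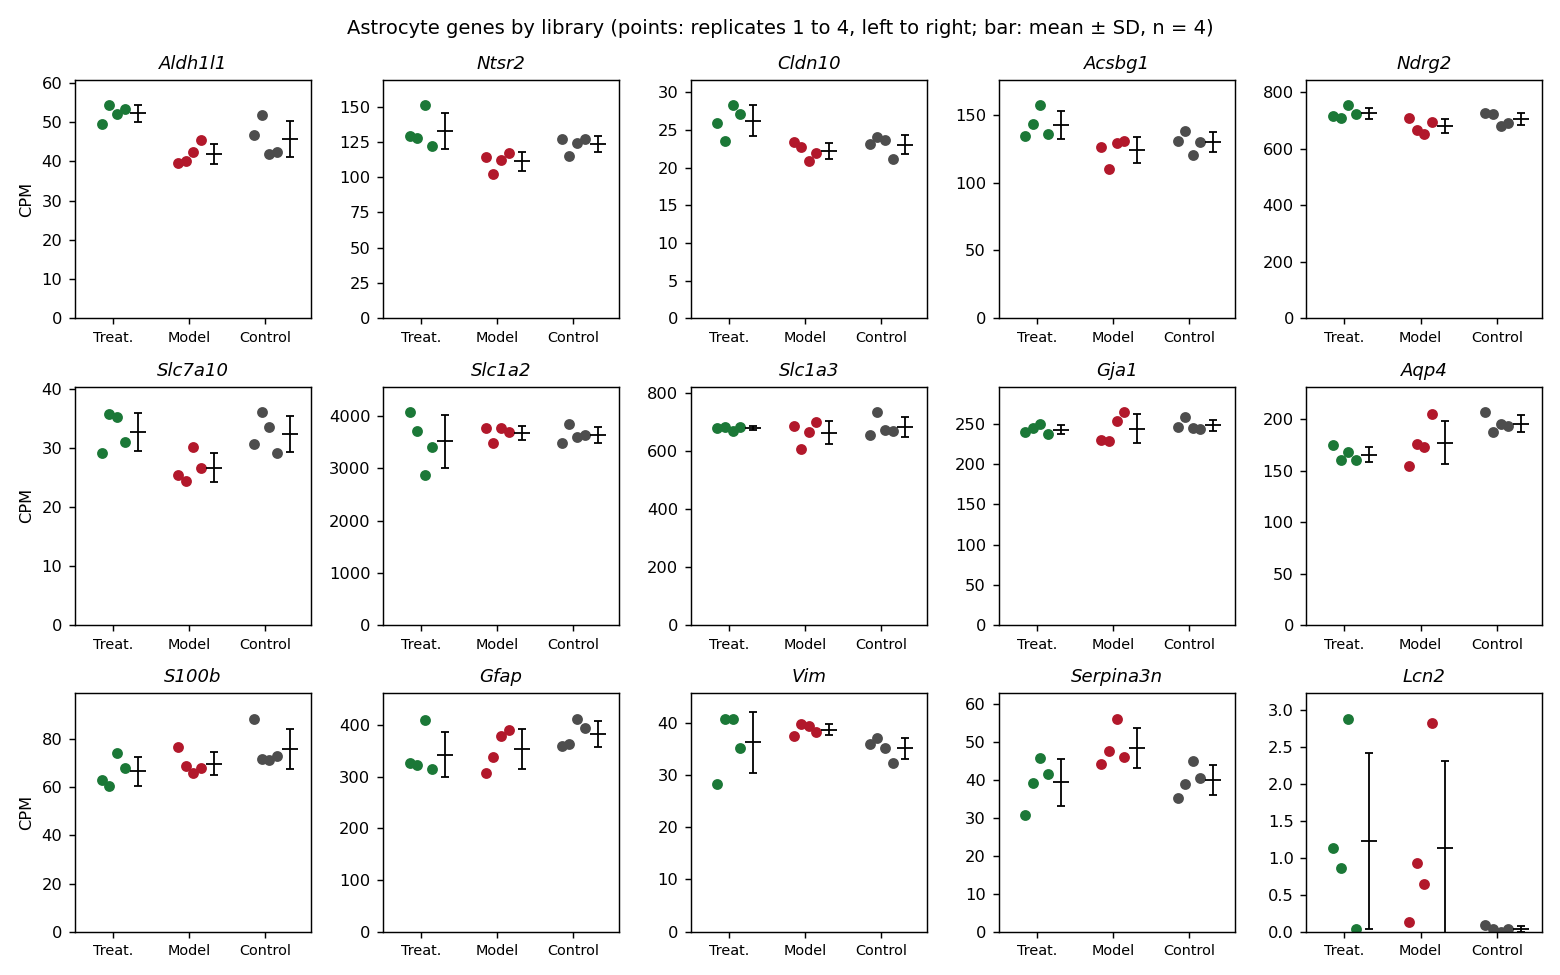
CPM of 15 members in each library (points, replicates 1 to 4 from left to right) of Treatment, Model and Control, with the mean and SD (n = 4 each) and each axis starting at 0. Aldh1l1 separates Treatment from Model, Slc1a2, Slc1a3 and Gja1 overlap among the groups, and Lcn2 is near 0 in all 4 Control libraries.

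The intermediate filament genes, the classical signs of reactive astrocytes, showed no call. Gfap had 326, 322, 409 and 315 CPM in Treatment, against 307, 338, 378 and 391 CPM in Model and 360, 363, 412 and 394 CPM in Control. Treatment 1, 2 and 4 lay at the low end, Treatment 3 lay near the top of Control, and all groups overlapped. Means were 343 ± 44.3 CPM in Treatment, 353 ± 38.4 CPM in Model and 382 ± 25.2 CPM in Control. Treatment differed from Model by -0.04 ± 0.09 (interval -0.24 to 0.15, adjusted p = 0.854) and Model from Control by -0.11 ± 0.09 (interval -0.31 to 0.08, adjusted p = 0.595). An increase of Gfap in Model beyond 0.08 on the log2 scale thus lay outside the 95% interval.

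Vim, which encodes vimentin, had 28.3, 40.6, 40.7 and 35.2 CPM in Treatment, 37.4, 39.7, 39.4 and 38.1 CPM in Model and 35.9, 37.0, 35.2 and 32.3 CPM in Control. Model lay just above Control in all libraries, and Treatment held both the lowest and the highest value. The difference between Model and Control was 0.14 ± 0.09 and did not pass (adjusted p = 0.516). Vimentin is also made by vascular, meningeal and ependymal cells.

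Serpina3n, a secreted serine protease inhibitor gene that is strongly induced in reactive astrocytes, had 30.9, 39.2, 45.8 and 41.5 CPM in Treatment, 44.2, 47.7, 56.1 and 46.0 CPM in Model and 35.3, 39.0, 44.9 and 40.4 CPM in Control. Model was highest, with its lowest library just under the highest library of each other group. Model exceeded Control by 0.28 ± 0.11 (adjusted p = 0.218), and Treatment over Model was -0.30 ± 0.11 (adjusted p = 0.148), neither past the threshold. Without the filter on low counts the adjusted p in edgeR was 0.0147 for Model over Control and 0.00958 for Treatment over Model. In that fit 1.87% and 2.6% of all genes passed. Serpina3n passed in 1 of 26 alternative fits for Model over Control and in 2 of 26 for Treatment over Model. The 14 other Serpina3 genes of the table reached at most 32 counts in a library, and the Serpina3n estimate was a whole number in all 12 libraries.

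Lcn2 encodes lipocalin 2, a secreted siderophore-binding protein of the acute-phase response, and lies at chr2:32274645-32277734 (GRCm39). Its estimated counts were 22, 17, 57 and 1 in Treatment, against 3, 17, 14 and 66 in Model and 2, 1, 0 and 1 in Control. The gene was scarce throughout: 3 libraries of each stressed group had at least 14 counts, while Treatment 4 had 1 and Model 1 had 3. Pooled, there were 97 counts in Treatment, 100 in Model and 4 in Control. Scaled to library totals, Model held 26.3 times the Control level (95% counting interval 9.96 to 98.4) and Treatment 26.5 times (10.0 to 99.2), whereas Treatment over Model was 1.01 (0.754 to 1.35). These intervals cover counting error only, and single libraries carried much of the sums. Without Model 4, which held 66 of the 100 Model counts, Model over Control was 12.3 (4.39 to 47.7) and Treatment over Model 2.15 (1.44 to 3.28). Without Treatment 3, which held 57 of the 97 Treatment counts, Treatment over Control was 14.4 (5.20 to 55.4) and Treatment over Model 0.547 (0.369 to 0.797). Without Control 1 the ratios to Control were 40.8 for Treatment and 40.6 for Model. The test across libraries did not pass for Model over Control (adjusted p = 0.0802) or Treatment over Control (adjusted p = 0.118) in edgeR. Lcn2 entered this filtered test only through Treatment and Model libraries, where it was high. Without the filter on low counts it passed in both in edgeR (adjusted p = 1.48e-12 for Model and 6.94e-13 for Treatment over Control). In that fit 1.87% and 1.78% of all genes passed, and the cause of the change was not tested. Lcn2 passed in 3 of 24 alternative fits for Model over Control and in 1 of 24 for Treatment over Control.

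With 1 library left out, Lcn2 in Model over Control passed in 2 of 12 edgeR fits, with adjusted p up to 0.249. These 2 left out Treatment 3 (adjusted p = 0.0494) or Treatment 4 (0.0453), libraries outside that comparison. Neutrophils are another source of lipocalin 2. The 7 neutrophil genes (S100a8, S100a9, Ngp, Camp, Ltf, Mmp8 and Retnlg) examined, listed after the values of Lcn2 were seen, reached at most 9 counts in a library. Summed, they gave 2 to 15 counts in Treatment, 1 to 12 in Model and 3 to 14 in Control, with 0 of them tested. The 12 choroid plexus markers, from a tissue next to the hippocampus, summed to 955 to 2507 CPM in Treatment, 1142 to 1598 CPM in Model and 1369 to 4075 CPM in Control. With the choroid plexus score as a term Lcn2 did not pass in Model over Control (adjusted p = 0.282) or in Treatment over Control (adjusted p = 0.358). It had not passed without the term either, and with it 3 of all genes passed in the first comparison and 0 in the second. Whether choroid plexus had a part in the Lcn2 values was not tested.

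Of the remaining reactive genes, Osmr, the oncostatin M receptor gene upstream of STAT3, averaged 6.61 ± 1.01 CPM in Treatment, 6.01 ± 0.378 CPM in Model and 5.17 ± 0.565 CPM in Control. Treatment over Control was 0.35 ± 0.13 (adjusted p = 0.246). Cd44, a hyaluronan receptor gene, averaged 4.92 ± 1.54, 5.51 ± 1.94 and 4.97 ± 1.05 CPM in Treatment, Model and Control, and S1pr3, a sphingosine 1-phosphate receptor gene, 7.97 ± 1.22, 8.51 ± 1.03 and 7.83 ± 1.18 CPM in the same groups. At 63 to 234 counts a library, the fold changes of these genes had wider intervals than those of Slc1a3 or Gja1. Summed over the 7 tested reactive genes, the level was 402 to 520 CPM in Treatment, 410 to 500 CPM in Model and 450 to 509 CPM in Control, a sum dominated by Gfap. The 23 homeostatic genes summed to 8717 to 9545 CPM in Treatment, 8629 to 9278 CPM in Model and 8899 to 9556 CPM in Control, with overlap of all groups.

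**Figure D4:**
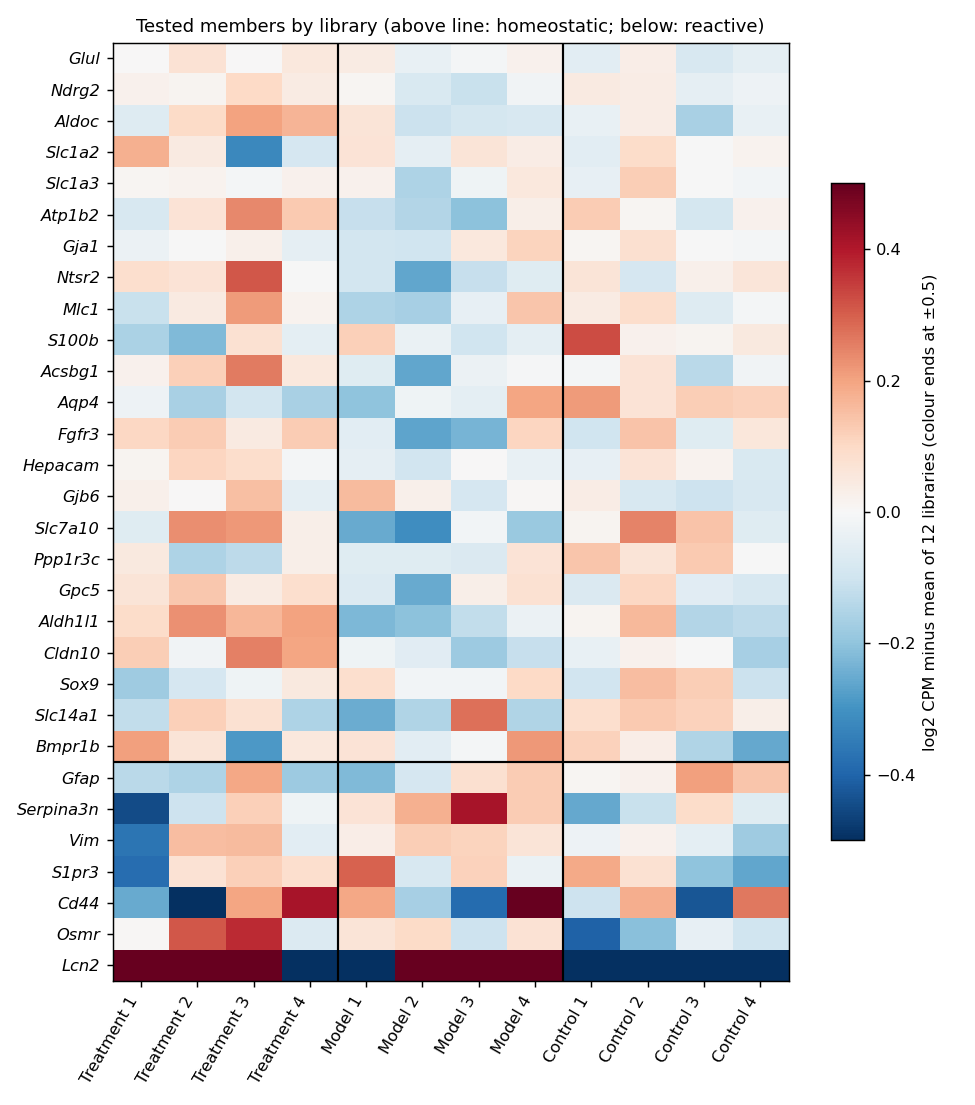
Log2 CPM of the 30 tested members in each library of Treatment, Model and Control, minus the gene's mean over the 12 libraries; colours end at 0.5 below and above, homeostatic genes above the horizontal line and reactive genes below. Most homeostatic genes in Model 2 are below their mean, Treatment 3 is low for Slc1a2 and high for Gfap and Atp1b2, and Lcn2 exceeds the colour scale.

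A wider set of astrocyte genes was read beside the members. Rorb stands both in this set and in the neocortical marker list, so the lists are not fully separate. Of 31 other astrocyte-enriched genes, Prodh, the mitochondrial proline dehydrogenase gene, rose in Treatment against Model and 0 fell, with 24 higher and 7 lower and a median log2 fold change of 0.14. Over all genes 1.18% rose and 0.704% fell. Prodh had 27.2, 33.9, 30.9 and 27.9 CPM in Treatment, against 24, 20.5, 23.7 and 24 CPM in Model and 26.5, 26.8, 25.2 and 27.3 CPM in Control. Model was lowest in every library, and the difference between Treatment and Model was 0.38 ± 0.08 (adjusted p = 0.0290).

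In Model against Control 1 of the 31 fell and 0 rose, with 7 higher and 24 lower and a median of -0.08, while 0.790% of all genes passed. That gene was Il33, a nuclear alarmin made by astrocytes and oligodendrocytes, with 34.6, 42.0, 35.8 and 42.9 CPM in Model and 46.4, 52.1, 51.1 and 46.5 CPM in Control. No Model library reached Control, and Il33 fell by 0.34 ± 0.07 on the log2 scale (adjusted p = 0.0474). Oligodendrocyte markers were lower in the same comparison in 9 of 10 genes (median -0.16), and 2 of them fell: Opalin had 24 to 28.1 CPM in Model and 32.2 to 38.8 CPM in Control, and Aspa 15.3 to 16.6 CPM in Model and 21.1 to 23.5 CPM in Control. The 10 genes summed to 6568 to 7906 CPM in Model and 6865 to 8098 CPM in Control, and their part in the fall of Il33 was not tested. Treatment libraries held 45.2, 48.1, 46.2 and 45.8 CPM, above all of Model, but that difference did not pass (0.26 ± 0.07, adjusted p = 0.0857). In Treatment against Control 0 of the 31 passed in edgeR, with 9 at an unadjusted p under 0.05 against 13.9% of all genes. Most of these calls lay near the threshold: with 1 library left out, Il33 passed in 2 of 12 fits (adjusted p up to 0.164), while Prodh passed in 9 and was lost without Model 2 (0.117), Model 3 (0.0872) and Treatment 2 (0.0816).

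Reactive astrocytes have been sorted into an A1 type, named for neuroinflammation, and an A2 type, named for ischaemia. Of 11 tested A1-type genes 1 rose and 0 fell in Treatment against Model, with 7 higher and 4 lower (median 0.25). An unadjusted p under 0.05 was reached by 4 of them in Treatment against Model, 1 in Model against Control and 2 in Treatment against Control. Of 10 tested A2-type genes 0 passed in any of the 3 comparisons in edgeR. In Treatment against Model 5 of these were higher and 5 lower (median 0.04). The A2-type genes with an unadjusted p under 0.05 were 3 in Treatment against Model, 0 in Model against Control and 2 in Treatment against Control. Over all genes 1.88% passed in Treatment against Model, and an unadjusted p under 0.05 was reached by 18.5%, 15.6% and 13.9% in these comparisons. Treatment lay wholly above Model in 2 A1-type genes and wholly below in 1, against 5.14% and 4.36% of all genes. The lower gene was Fkbp5, with 49.0 to 55.2 CPM in Treatment and 62.2 to 73.9 CPM in Model, and it did not pass. The A1-type gene that rose was H2-T23, a class I histocompatibility gene. H2-T23 had 10.2, 8.51, 8.94 and 8.36 CPM in Treatment, against 6.05, 4.52, 5.22 and 6.09 CPM in Model and 4.13, 6.98, 5.71 and 5.31 CPM in Control. All Treatment libraries exceeded both other groups, by 0.71 ± 0.15 over Model (adjusted p = 0.0301) and 0.69 ± 0.15 over Control (adjusted p = 0.0841). Microglia and endothelium also express such genes, and its call was lost without Model 2, Model 3, Treatment 1, Treatment 2 or Treatment 4 (adjusted p of 0.0526 to 0.117).

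Of 11 tested genes of the STAT3 and NF-kB pathways 2 rose and 0 fell in Treatment against Model, where 1.88% of all genes passed. By direction 4 were higher and 7 lower, with a median log2 fold change of -0.04, against 0.00 over all genes. Treatment lay wholly above Model in 2 (Cntfr and Rela) and wholly below in 1 (Jak1, 146 to 166 against 168 to 180 CPM). Over all genes this held for 5.14% and 4.36%. Cntfr, the ciliary neurotrophic factor receptor subunit that signals to STAT3, had 64.9, 75.4, 80.1 and 78.2 CPM in Treatment, 60.4, 54.4, 53.7 and 58.2 CPM in Model and 55.3, 61.1, 52.5 and 52.7 CPM in Control. Its Treatment libraries lay above all others, by 0.40 ± 0.07 over Model (adjusted p = 0.0199) and 0.43 ± 0.07 over Control (adjusted p = 0.0452). Rela, the p65 subunit gene of NF-kB, had 21.0, 23.5, 26.7 and 21.8 CPM in Treatment, 16.9, 16.6, 17.9 and 19.1 CPM in Model and 19.9, 21.1, 18.8 and 21.7 CPM in Control. All Treatment libraries exceeded all Model libraries, Control overlapped both, and Treatment over Model was 0.40 ± 0.08 (adjusted p = 0.0305). In Model against Control 0 of the 11 passed in edgeR, with 4 at an unadjusted p under 0.05 against 15.6% of all genes.

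Those calls too were uneven when 1 library was left out. Cntfr over Model was lost without Model 2 (0.0929), Model 3 (0.0809), Treatment 2 (0.0550) or Treatment 4 (0.0511), and its call over Control held in 4 of 12 fits (adjusted p up to 0.176). Rela was lost in 6 of 12, without Model 1, Model 2, Model 3, Treatment 2, Treatment 3 or Treatment 4 (adjusted p of 0.0504 to 0.118). Neurons express Cntfr as well. In Treatment against Model 9 of 10 neocortical markers were higher, but 7 of 10 general neuronal markers and 10 of 10 dentate markers were lower. The part of neurons in the Cntfr values was not tested. With the neocortical score as a term 0 of all genes passed in that comparison, Cntfr and Rela included.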

How the data were processed

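The 12 libraries of hippocampal poly(A) RNA were grouped as Treatment, Model and Control from the sample labels. Per the submitters' processing notes the tools were Salmon 1.10.1, STAR 2.7.10a, Trim Galore 0.6.7, FastQC 0.12.1 and cutadapt 3.4, with the builds GRCm39 and mm39; their settings, the annotation and the use of strand are not given in the sources used here, so overlapping antisense genes may share reads. The deposited table holds estimated counts per gene, which the authors did not scale (28.8% of nonzero values were not whole within 1e-06), and deposited FPKM, scaled by the authors for length and library total.

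Estimated counts were rounded and fitted in R 4.3.3 with edgeR 4.0.16 (filterByExpr, TMM scaling, a quasi-likelihood fit of group means, Benjamini-Hochberg adjustment over 18600 genes). The standard error is the fold change over the root of its F statistic. The procedure was tested on simulated data. Totals of 17083260 to 27479083 counts set the precision. Marker scores are mean log2 CPM with a prior count of 2, scaled per gene. Values by library are given for members that passed, that did not overlap between groups, or that define astrocytes (Gfap, Aqp4, Slc1a2, Slc1a3, Aldh1l1, S100b, Gja1, Vim, Serpina3n), and for genes of the other lists that passed. The members and all lists were chosen with earlier results of these data known. Alternatives were RLE scaling, DESeq2 1.42.0, limma-voom 3.58.1, other filters, only the 8 libraries compared, a replicate block, left-out libraries, choroid plexus and neocortical scores as terms, and FPKM in limma with pseudocounts of 0.1 and 1 and with and without a filter of 0.5 FPKM in 4 libraries. Offsets for GC content and length, from an annotation of the earlier build, and pooled Lcn2 ratios without each library were added after seeing the data. Other tools were data.table (version 1.17.8), Python 3.11.15 and matplotlib 3.10.9.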

Additional observations from a re-analysis of the deposited data

Results flagged for a closer look

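Within groups of 4 libraries, 1 library stood apart from the other 3 in 9 of 96 sets of member values, by Dixon's test at its 95% level. Chance gives about 1 in 20 sets. Gfap was 409 CPM in Treatment 3, against 315 to 326 CPM in the other Treatment libraries, and S1pr3 was 6.15 CPM in Treatment 1, against 8.46 to 8.74 CPM. In Model, Slc14a1 was 23.5 CPM in replicate 3 against 16.3 to 17.5 CPM, Aldoc 745 CPM in replicate 1 against 662 to 675 CPM, and Ppp1r3c 50.8 CPM in replicate 4 against 46.0 to 46.4 CPM. In Control, replicate 1 was high for S100b, at 88.4 CPM against 71.3 to 72.9 CPM, and for Gjb6, at 51.7 CPM against 46.7 to 47.5 CPM. Gpc5 was 45.2 CPM in Control 2, against 39.9 to 40.5 CPM in the other Control libraries, and the scarce Timp1 was 0.245 CPM in Control 4, against 0.0971 to 0.116 CPM.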

How the results depend on the processing

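The 22 gene results followed were picked because they passed, did not overlap or had an unadjusted p under 0.05 in the main fit. Alternatives reuse the same libraries, so kept directions were favoured from the outset. No direction reversed among these results in 26 alternative fits (24 for Lcn2). The median of the reactive genes did: in Treatment against Model it was above 0 without Model 4, without Treatment 1 or with the neocortical score, and in Treatment against Control it was below 0 without Treatment 3 (-0.02) and with filtered FPKM (-0.01). The number of members passing in Treatment against Model, 1 as reported, was 3 in DESeq2 (Aldh1l1, Ntsr2, Slc7a10) and 4 without a filter on low counts (these and Serpina3n). In those fits 5.91% and 2.6% of all genes passed, against 1.88% in the main fit. The number was 0 in a fit of only the 8 libraries compared, without Treatment 2 and 3, with the neocortical score, with FPKM in all 3 settings and with GC and length trends removed, and the cause was not tested. Without a filter 2 members passed in Model against Control (Lcn2 and Serpina3n) and 1 in Treatment against Control (Lcn2), where 1.87% and 1.78% of all genes passed. With 1 library left out the numbers were 0 to 1 in Treatment against Model, 0 to 1 in Model against Control and 0 to 0 in Treatment against Control. Genes passing among all tested, 350, 147 and 19 in these comparisons, ran from 0 to 1099 (DESeq2), from 3 (choroid plexus score) to 783 (no filter) and from 0 to 748 (no filter). Same-numbered libraries did not pair: their deviations correlated at -0.04 to 0.11, over 0.1 in 1 of 12 pairs, and a library correlated best with its own number in 8 of 24 cases. With the replicate block 2 members passed in Treatment against Model (Aldh1l1 and Serpina3n), and 431 of all genes (2.32%). Depth limits Lcn2, Timp1 and Steap4, at 0 to 66 counts a library; Lcn2 was left out by the filter of 1 CPM in 8 libraries.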

Other observations

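Hspb1, a small heat shock protein gene of the reactive astrocyte lists that was singled out after its values were seen, had 5.64, 7.25, 8.74 and 5.69 CPM in Treatment, 4.18, 5.62, 4.89 and 7.64 CPM in Model and 4.08, 3.22, 2.68 and 2.74 CPM in Control. Both stressed groups lay wholly above Control, by 1.1 ± 0.21 on the log2 scale for Treatment (adjusted p = 0.0540 in edgeR) and 0.81 ± 0.21 for Model (adjusted p = 0.0771), neither past the threshold. Treatment 3 and Model 4, its highest libraries, were also the highest of their groups for Lcn2.

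With group means removed, 168 of 253 pairs of homeostatic members had a positive correlation of log2 CPM over the 12 libraries, with a median of 0.20. Pairs of genes outside the members were not computed for comparison. Pairs of a homeostatic with a reactive gene gave a median of 0.19. These points share library depth and composition, and the pairs were picked after seeing the values: Slc7a10 with Hepacam was the closest, at 0.94, followed by Slc1a3 with Gpc5 at 0.90, while Slc1a2 with Atp1b2 stood at -0.69. For Slc1a2 and Atp1b2, Treatment 3 had the lowest Slc1a2, at 2880 CPM, and the highest Atp1b2, at 498 CPM.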
